A study of Mus musculus with 4 samples.

Results

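The 33 genes described here encode proteins that copy DNA or prepare for copying it, and they were taken as a list of names with no threshold on a measured value, a list drawn up with earlier results of these data known. All 33 are listed in at least 1 of the count files, out of 25437 gene names. They were read in 4 single-cell RNA libraries from whole wildtype mouse embryos of the strain B6C3F1/J, captured on the BD Rhapsody microwell system after dissociation with TrypLE, with 1 library per stage. The libraries labelled EDG7.5 and EDG9.5 came from blastocysts of embryonic diapause, the one labelled Reactivated from blastocysts at EDG9.5 plus 30 h of E2, and the one labelled E5.5 from embryos after implantation. Each of the first 3 pooled 200 to 250 blastocysts flushed from the uterus, while E5.5 pooled 50 embryos taken out of their implantation sites, so in E5.5 the stage and the way of collection cannot be told apart. The labels do not spell out EDG or E2 and give no sex or number of mothers, and an E4.5 stage named in the series text is not analysed here.

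DNA replication runs in steps. In G1 the origin recognition complex and CDC6 load the MCM2-7 helicase on origins, which licenses them; at the start of S phase CDC45, the GINS complex and MCM10 turn the helicase on, primase and the polymerases then copy both strands, and PCNA, the ring loaded by replication factor C, holds the polymerases on the template. Ribonucleotide reductase and thymidylate synthase supply the nucleotides, and histone chaperones rebuild chromatin behind the fork. Many of these genes are textbook targets of E2F factors, which switch them on between G1 and S phase. Diapause is a reversible pause of the blastocyst before implantation in which cell division slows or stops.

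Cells were assigned to epiblast, endoderm or trophoblast by markers, in clusters rebuilt here and not the authors' own. The epiblast held 489, 582, 205 and 2640 cells, the endoderm 581, 863, 304 and 2989, and the trophoblast 588, 950, 163 and 3633, with the libraries in the order of the labels above, which is kept throughout. The libraries held 9270833 to 87507141 molecule counts (UMIs), with a median of 3724.5 to 13154 per barcode, lowest in EDG9.5 and highest in Reactivated, and 70 barcodes occur in more than 1 library. A gene's UMIs were added up over all cells of one lineage in one library and divided by the total of that sum, given in the usual CPM unit, which is a share of the RNA counted and not an amount per cell. With 1 library per stage there is no test and no replicate check, and the 95% intervals given in parentheses (exact Poisson for CPM, exact conditional binomial for ratios) cover counting error only. A gene counts as measured in a comparison when the mean of both sums reaches 10 CPM and they hold 10 UMIs or more together, and as at least 2-fold higher or lower on the log2 ratio with 10 CPM added to both sides, a scale that understates low genes. Ratios given with an interval have nothing added.

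Of the 33 genes, 28 have a window of 250 bases before to 50 bases after a start site in the RefSeq promoter table (GRCm38.p6), which was searched on both strands for letters of 4 promoter motifs. E2F letters (TTTCCCGC, TTTCGCGC, TTTGCCGC or TTTGGCGC) occurred in 11 of the 28, or 39.3%, against 744 of all 32851 windows, or 2.26%. CCAAT, the letters bound by NF-Y, occurred in 19 (67.9%, against 37.4% of all windows), and the GC box GGGCGG in 18 (64.3% against 35.7%). TTTGAA, the core of the cell cycle element CHR, occurred in 5 (17.9% against 17.9%). The member shares count genes and the others count windows. The 28 genes have 30 windows, of which 11 held E2F letters. Of 46 other DNA replication genes with a window, from a list taken up below, 37% had E2F letters and 45.7% CCAAT. The GC box occurred in 89.1% of these 46 and TTTGAA in 19.6%. The following stretches hold the 150 bases before the start site, 5′ to 3′ on the gene's strand. The first 6 are shown for their E2F letters, in capitals, and the last 2 because Rrm2 and Pcna, with some of the highest ratios below, had no E2F letters in the window; there the capitals mark CCAAT on either strand.
Mcm5: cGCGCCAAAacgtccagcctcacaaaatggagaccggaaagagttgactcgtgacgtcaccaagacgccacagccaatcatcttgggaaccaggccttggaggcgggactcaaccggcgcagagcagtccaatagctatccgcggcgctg
Mcm6: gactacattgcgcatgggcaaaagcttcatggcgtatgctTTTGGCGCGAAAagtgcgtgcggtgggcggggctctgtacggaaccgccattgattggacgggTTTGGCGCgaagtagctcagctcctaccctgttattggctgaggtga
Cdc6: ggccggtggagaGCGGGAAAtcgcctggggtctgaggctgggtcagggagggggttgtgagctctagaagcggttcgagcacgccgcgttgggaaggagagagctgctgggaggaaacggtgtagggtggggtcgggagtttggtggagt
Hells: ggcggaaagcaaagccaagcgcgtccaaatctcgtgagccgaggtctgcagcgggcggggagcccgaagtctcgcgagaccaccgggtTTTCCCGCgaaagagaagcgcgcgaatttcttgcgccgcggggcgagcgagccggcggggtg
Dtl: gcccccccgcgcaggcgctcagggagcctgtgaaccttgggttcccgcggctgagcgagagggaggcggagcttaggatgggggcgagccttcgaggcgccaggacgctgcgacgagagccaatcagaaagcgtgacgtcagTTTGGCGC
Pola1: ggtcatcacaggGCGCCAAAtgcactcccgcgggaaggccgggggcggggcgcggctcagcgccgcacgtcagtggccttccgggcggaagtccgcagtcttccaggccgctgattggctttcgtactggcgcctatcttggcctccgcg
Rrm2: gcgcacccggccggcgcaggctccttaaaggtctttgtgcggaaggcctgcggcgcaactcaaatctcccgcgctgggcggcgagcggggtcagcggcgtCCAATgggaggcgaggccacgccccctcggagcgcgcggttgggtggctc
Pcna: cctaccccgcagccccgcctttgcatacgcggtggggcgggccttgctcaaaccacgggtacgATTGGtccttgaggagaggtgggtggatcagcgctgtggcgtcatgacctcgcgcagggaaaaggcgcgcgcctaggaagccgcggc

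In GRCm38.p6 these stretches lie at chr8:75109359-75109508 on the forward strand for Mcm5, chr1:128359706-128359855 on the reverse strand for Mcm6, chr11:98908001-98908150 forward for Cdc6 and chr19:38930840-38930989 forward for Hells. Those of Dtl and Pola1 lie at chr1:191575545-191575694 and chrX:93632156-93632305, both reverse, that of Rrm2 at chr12:24708104-24708253 forward and that of Pcna at chr2:132253181-132253330 reverse. In Mcm6 matches at -110 and -106 from the start site overlap on opposite strands and a further one lies at -47. In Mcm5 one of the 2 matches, at -149, lies within the stretch and the other, at -153, starts before it. The other genes with E2F letters were Mcm3, Mcm7, Clspn, Rfc3 and Pole2. A match describes the letters only, and the ratios of the genes with and without E2F letters are set beside each other at the end of the comparisons.

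Summed over the 33 genes, the replication share was lowest in the diapause libraries in all 3 lineages. In the epiblast it was 4079.6 CPM at EDG7.5 and 3379.5 at EDG9.5, as against 6861 after reactivation and 8711 at E5.5. In the endoderm the values were 2469, 2066, 3519.7 and 4104 CPM. The trophoblast held the least in diapause, 1393 and 1432 CPM, but 3906 after reactivation and 6149.8 at E5.5, above the endoderm in both. Per cell, the list summed to 23.9, 14.6, 85.8 and 76.5 UMIs in the epiblast, 13.9, 8.78, 54.2 and 37.2 in the endoderm and 7.80, 6.78, 47.7 and 56.2 in the trophoblast. Total UMIs per cell differed alike, from a mean of 4323 in the EDG9.5 epiblast to 12499.7 in the Reactivated epiblast, so the difference per cell exceeds the difference in share. How much of the depth per cell is RNA content and how much is capture cannot be told apart here.

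**Figure D1:**
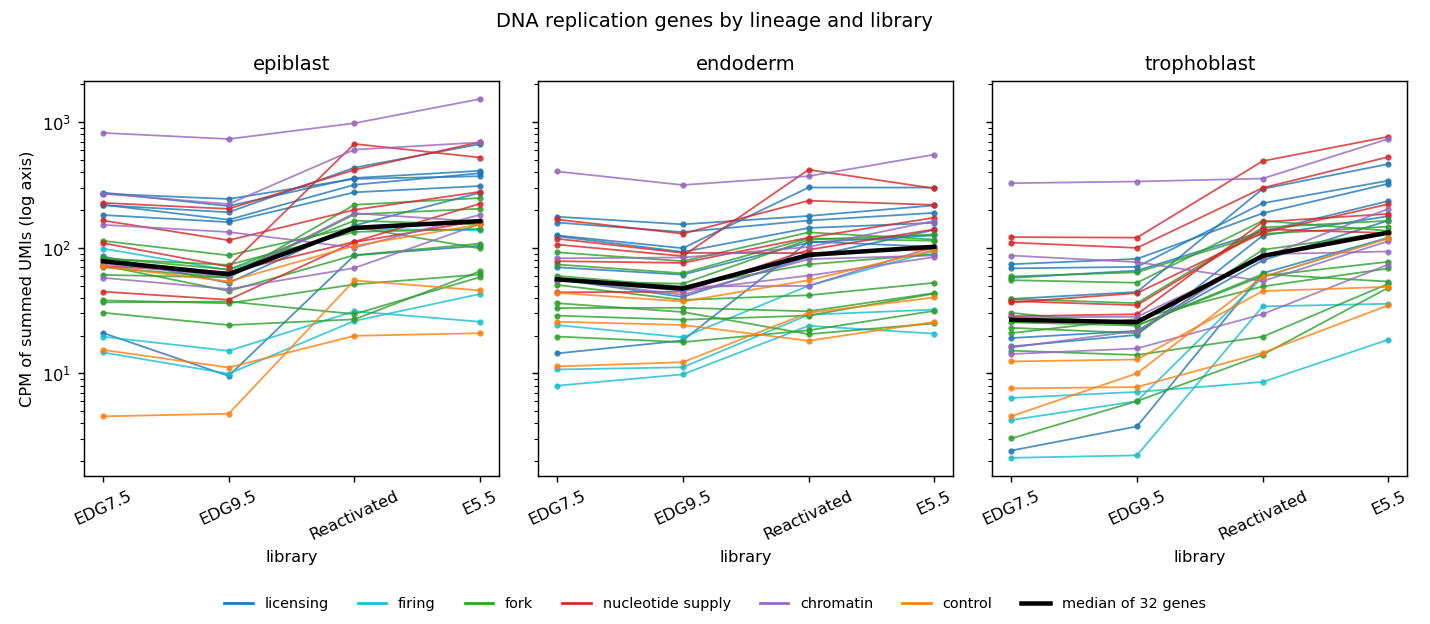
CPM of summed UMIs (log axis) of the 32 genes other than Fen1 in each library, by lineage; each line is a gene, coloured by step, and the black line is the median of the 32. The trophoblast lines start lowest in diapause, and nearly all lines are higher in Reactivated and E5.5 than in EDG9.5.

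Of the 7 licensing genes, 3 in the epiblast, 2 in the endoderm and 6 in the trophoblast were at least 2-fold higher in Reactivated than in EDG9.5 (9.83%, 8.07% and 13.8% of all measured genes were). Mcm5, a subunit of the helicase ring, was at 39.1 CPM in EDG7.5 and 44.5 in EDG9.5, against 295 in Reactivated and 465 in E5.5 in the trophoblast, a Reactivated to EDG9.5 ratio of 6.63 (5.64 to 7.82) and an E5.5 to EDG9.5 ratio of 10.5 (9.09 to 12.1). In the epiblast Mcm5 was at 219, 192, 434 and 670.2 CPM, with ratios of 2.26 (2.03 to 2.52) and 3.49 (3.19 to 3.83). Its endoderm values were 125, 99.3, 302 and 302 CPM, level between Reactivated and E5.5. The diapause pair is thus low and the other pair high for Mcm5 in each lineage.

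Cdc6, the loader of the helicase, had few UMIs in diapause, 24 in the EDG9.5 epiblast and 17 in the EDG9.5 trophoblast. It was at 21, 9.54, 87 and 104 CPM in the epiblast, 14.4, 18.3, 112 and 102 CPM in the endoderm and 2.43, 3.78, 62.8 and 120.3 CPM in the trophoblast. The Reactivated to EDG9.5 ratios were 9.12 (5.98 to 14.5), 6.14 (4.76 to 8.04) and 16.6 (9.97 to 29.4) in that order. The helicase subunits themselves were present in diapause in every lineage. Mcm2 in the EDG9.5 epiblast was at 167 CPM, far above Cdc6, and its Reactivated to EDG9.5 ratio was 1.9 (1.69 to 2.14). The contrast was smaller in the EDG9.5 trophoblast, where Mcm3 was at 20.2 CPM. With 10 CPM added, Mcm5 and not Cdc6 had the highest licensing log2 ratio there for Reactivated over EDG9.5, 2.48.

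Mcm2, Mcm3, Mcm4, Mcm6 and Mcm7 form the ring with Mcm5. Mcm3 gave the widest range of these in trophoblast, 16.4, 20.2, 125 and 179 CPM, with a Reactivated to EDG9.5 ratio of 6.18 (4.84 to 7.95). Mcm4 was at 68.6, 70.5, 227 and 343 CPM and Mcm6 at 74, 81.6, 188 and 324 CPM in the same cells. In the endoderm Mcm4 was at 177, 154, 179 and 218 CPM and Mcm6 at 159, 133, 165 and 189.9 CPM, so that Reactivated was level with EDG7.5 for both within counting error, and their ratios to EDG9.5 were 1.17 (1.05 to 1.3) and 1.24 (1.1 to 1.39), while Mcm7 was 2.08 (1.72 to 2.53). Subunits of one complex therefore spanned log2 ratios of 0.21 to 1.51 in the endoderm and 0.93 to 2.48 in the trophoblast. Exons of Mcm7 overlap those of Ap4m1, Cops6 and 2 miRNA genes, and its counts may include theirs.

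The genes that turn the helicase on were scarce in diapause trophoblast. Mcm10 was at 4.25, 6.0, 58.3 and 121 CPM there, against 98.6, 66.4, 141 and 138 CPM in the epiblast and 24.2, 19.4, 49.8 and 94.5 CPM in the endoderm. Over EDG9.5 its trophoblast ratio was 9.71 (6.34 to 15.4) for Reactivated and 20.1 (13.8 to 30.6) for E5.5. Cdc45, part of the active helicase, was at 2.12, 2.22, 34.2 and 35.8 CPM in the trophoblast, where EDG9.5 held 10 UMIs and the Reactivated ratio was 15.4 (7.86 to 33.5). Gins2, a GINS subunit, was low everywhere, at 14.7, 9.94, 26.1 and 42.9 CPM in the epiblast, and in trophoblast it did not reach the minimum for Reactivated over EDG9.5. The exons of Gins2 overlap those of Gse1 on the other strand by up to 2758 bases, and those of Cdc45 overlap Ufd1 by 164 bases. The strand setting of the counting is not given in the sources used here, so reads of such pairs cannot be told apart.

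Fork genes ranged from Pcna and Rpa2, well above EDG9.5 in Reactivated, to Pola1, which was below it in the endoderm. Pcna was at 60.8, 58, 220.1 and 249 CPM in the epiblast, 54.3, 51.8, 116 and 128 CPM in the endoderm and 39.1, 36.2, 145 and 164 CPM in the trophoblast. Its Reactivated to EDG9.5 ratios were 3.79 (3.16 to 4.58), 2.24 (1.9 to 2.66) and 4.01 (3.29 to 4.88). The near-identical copy Pcna-ps2 was counted as a gene of its own, at 46.2, 26.2, 126 and 107 CPM in the epiblast, so reads may be split between them and the level of Pcna is uncertain. With the copy added, the 6 calls of Pcna against EDG9.5 were all kept.

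Rpa2, a subunit of the protein that coats single-stranded DNA, was at 69.9, 58, 185 and 205 CPM in the epiblast and 23.1, 20.9, 96.4 and 133 CPM in the trophoblast. Those are Reactivated to EDG9.5 ratios of 3.18 (2.64 to 3.86) and 4.61 (3.59 to 5.97), against 1.5 (1.25 to 1.81) in the endoderm. Prim1, the catalytic subunit of primase, was at 55.2, 52.7, 164 and 136 CPM in the trophoblast, higher in Reactivated than in E5.5, and at 81.8, 73.1, 134 and 141 CPM in the epiblast. Both genes were higher in Reactivated than in EDG9.5 in all 3 lineages.

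Other fork genes were nearer to EDG9.5 in Reactivated. Pola1, the catalytic subunit of the polymerase that extends primers, was at 36.2, 30.8, 20.5 and 25 CPM in the endoderm, a Reactivated to EDG9.5 ratio of 0.666 (0.502 to 0.882), and at 114, 87, 147 and 98.8 CPM in the epiblast, where Reactivated was highest and E5.5 close to EDG9.5. Its trophoblast values were 15.2, 14, 19.6 and 51.7 CPM, high in E5.5 alone. Rfc4, a subunit of the clamp loader, was at 36.7, 37.4, 29.7 and 58.4 CPM in the epiblast, lowest in Reactivated, although the intervals of Reactivated to EDG9.5, 0.794 (0.579 to 1.09), include equality. Its fellow subunit Rfc2 went the other way there, at 83.2, 67.2, 164 and 154 CPM. Exons of Rfc4 overlap Eif4a2 and exons of Rfc2 overlap Lat2, each on the other strand.

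Clspn, an adaptor of the replication checkpoint, was at 30.4, 24.2, 26.9 and 65.1 CPM in the epiblast and 3.03, 6.0, 14.1 and 48.2 CPM in the trophoblast. Reactivated was close to EDG9.5 in the epiblast, 1.11 (0.776 to 1.59), and E5.5 was above Reactivated, 2.42 (1.9 to 3.12). Pole2 and Rfc3 ranged from 24 to 77.4 CPM and from 24 to 61.8 CPM in the trophoblast of EDG9.5, Reactivated and E5.5. Pole2 overlaps the protein-coding gene Gm49384 by 177 bases on the same strand, so its counts may be mixed. Fen1, the flap endonuclease that trims Okazaki fragments, had 10 UMIs in E5.5, 5 in Reactivated and 0 in either diapause library. It was not measured in any comparison, and its exons overlap 1909 bases of the antisense gene Gm10143 in the annotation.

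Among the genes of nucleotide supply, Rrm2 had the highest Reactivated over EDG9.5 log2 ratio (10 CPM added) of the 32 measured members in the epiblast, 3.08. Rrm2, the small subunit of ribonucleotide reductase, was at 109 CPM in EDG7.5 and 70.7 in EDG9.5, against 672 in Reactivated and 524 in E5.5 in the epiblast. That is a Reactivated to EDG9.5 ratio of 9.5 (8.14 to 11.2), and E5.5 was below Reactivated, 0.779 (0.74 to 0.819). The endoderm had the same order, 106, 85.9, 419 and 297 CPM, whereas in the trophoblast E5.5 was highest, 122, 121, 491 and 767 CPM. In both diapause libraries Rrm2 was higher in trophoblast than in epiblast, as were Slbp and E2f8.

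Its partner Rrm1, the large subunit, covered a smaller range. Rrm1 was at 71.3, 64, 112 and 225 CPM in the epiblast, 78.2, 75.8, 121 and 174 CPM in the endoderm and 36.7, 43.6, 132 and 223 CPM in the trophoblast, with Reactivated to EDG9.5 ratios of 1.74 (1.43 to 2.13), 1.59 (1.37 to 1.84) and 3.02 (2.5 to 3.65). The 2 subunits differed most in the epiblast, where the interval of Rrm2 lies wholly above that of Rrm1. Rrm2 had the higher ratio of the 2 in the endoderm as well, where the intervals are also apart, and in the trophoblast. Tyms, thymidylate synthase, was at 44.8, 38.6, 111 and 165 CPM in the epiblast and 37.6, 34.9, 141 and 131 CPM in the trophoblast.

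Dut, which removes dUTP from the pool, was at 228, 204, 417 and 695 CPM in the epiblast, 168, 129.5, 237 and 219.8 CPM in the endoderm and 110.1, 99.8, 299.9 and 529.6 CPM in the trophoblast. Ung, the glycosylase that takes uracil out of DNA, was at 28.5, 29.6, 161 and 186 CPM in the trophoblast, a Reactivated to EDG9.5 ratio of 5.44 (4.43 to 6.7). In the endoderm Ung was at 118, 91.1, 90.8 and 97.4 CPM, with a ratio of 0.997 (0.862 to 1.15). In CPM the 2 genes that keep uracil out of DNA were thus both higher in Reactivated trophoblast and only Dut was so in endoderm. TMM scaling by edgeR divides CPM by a factor, 1.16 in EDG9.5 and 0.89 in Reactivated endoderm. On that scale Ung too was higher in Reactivated endoderm, so its direction in endoderm depends on the scaling. The trophoblast factors were nearly equal, 0.849 in EDG9.5 and 0.853 in Reactivated, so the ratio of Ung there hardly moves. The lineage difference has no test with 1 library each.

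Chromatin genes differed in the library where they were high. Chaf1b, a subunit of the assembly factor that PCNA recruits, was already high in Reactivated, at 74.5, 59.2, 188 and 161 CPM in the epiblast and 16.1, 21.8, 88.9 and 93.4 CPM in the trophoblast. Hells, a chromatin remodeller, was at 269.9, 223, 605 and 691 CPM in the epiblast and 27.9, 28.2, 83.4 and 204 CPM in the trophoblast, against 82.5, 83.7, 102 and 164 CPM in the endoderm. Its Reactivated to EDG9.5 ratios were 2.71 (2.46 to 2.99), 2.95 (2.33 to 3.75) and 1.21 (1.05 to 1.4) in that order.

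Nasp, Slbp and Atad2 were higher mainly in E5.5. Nasp, a chaperone of linker and core histones, was at 823, 735, 983 and 1532 CPM in the epiblast and 327, 337, 356 and 738 CPM in the trophoblast, where Reactivated over EDG9.5 was 1.06 (0.964 to 1.16) and E5.5 over Reactivated 2.07 (1.92 to 2.24). Slbp, which binds the stem-loop of histone mRNAs, was at 86.8, 76.9, 54.2 and 113 CPM in the trophoblast, lower in Reactivated than in EDG9.5 with a ratio of 0.705 (0.563 to 0.878), and at 57.7, 46.9, 69.1 and 155 CPM in the epiblast. Atad2, a bromodomain protein, was at 152, 134, 100.3 and 183 CPM in the epiblast, again lowest in Reactivated, 0.751 (0.636 to 0.886). Slbp in trophoblast and Atad2 in epiblast were thus lower in Reactivated, where most of the 33 genes were higher. With 10 CPM added the log2 ratio of Atad2 was -0.38, near the median of all measured genes in that comparison, -0.25. That of Slbp was -0.44 against -0.05. Slbp has an exon overlap with Gm10459 on the other strand.

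Of the control genes, E2f8, a repressor of the E2F family, had 12 UMIs in the EDG9.5 epiblast and was at 4.55, 4.77, 55 and 45.8 CPM, a Reactivated to EDG9.5 ratio of 11.5 (6.4 to 22.9). Dtl, which targets CDT1 for destruction so that origins fire once, was at 4.55, 10, 58.8 and 119 CPM in the trophoblast, with a ratio over EDG9.5 of 5.87 (4.13 to 8.48) for Reactivated and 11.9 (8.85 to 16.3) for E5.5. Ccne2, cyclin E2, was at 25.8, 24.3, 18.2 and 25.7 CPM in the endoderm, where Reactivated was not above EDG9.5, 0.749 (0.549 to 1.02). E2f8 overlaps Gm2788 and Ccne2 overlaps Ints8 on the other strand.

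Between the 2 diapause libraries no member was 2-fold higher or lower in any lineage. The share of all measured genes at least 2-fold higher in EDG9.5 than in EDG7.5 was 0.0454% in the epiblast, 0.215% in the endoderm and 0.167% in the trophoblast, and the share at least 2-fold lower 0.0227%, 0.068% and 0.116%, so a count of 0 is near the background. The median log2 ratio of the members was -0.25 over 31 measured in the epiblast, with 30 below 0, and -0.19 over 31 in the endoderm, with 25 below 0. In the trophoblast it was 0.03 over 25, with 15 above 0. The medians of all measured genes were -0.03, -0.04 and -0.04. Cdc6 was the lowest in the epiblast, 0.455 (0.271 to 0.741), followed by Mcm7, 0.615 (0.494 to 0.763). In the trophoblast all 6 measured licensing genes lay above 0, between 0.03 and 0.2, and the interval of each ratio includes equality.

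In Reactivated over EDG9.5, 11 of 32 measured members were at least 2-fold higher in the epiblast, against 9.83% of all measured genes, and 0 lower, against 21.8%. In the endoderm 5 of 32 were higher (8.07% of all genes) and 0 lower (14.8%), and in the trophoblast 22 of 31 were higher (13.8%) and 0 lower (15.9%). The median log2 ratios were 0.82, 0.59 and 1.47, while those of all genes were -0.25, -0.18 and -0.05. TMM scaling moved the median of all genes to 0.03 in the epiblast and 0.12 in the endoderm; on that scale 22 and 14 members were higher, against 16.1% and 15.2% of all genes, and the background at least 2-fold lower was 13.9% and 8.58%. By step, the trophoblast median was 1.56 for licensing, 1.97 for 2 firing genes, 1.75 for nucleotide supply, 1.27 for control, 1.04 for fork and 0.62 for chromatin genes. In the endoderm fork and chromatin genes were at 0.21 and 0.25 and licensing genes at 0.76, and in the epiblast the steps lay between 0.47 for chromatin and 1.0 for nucleotide supply.

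**Figure D2:**
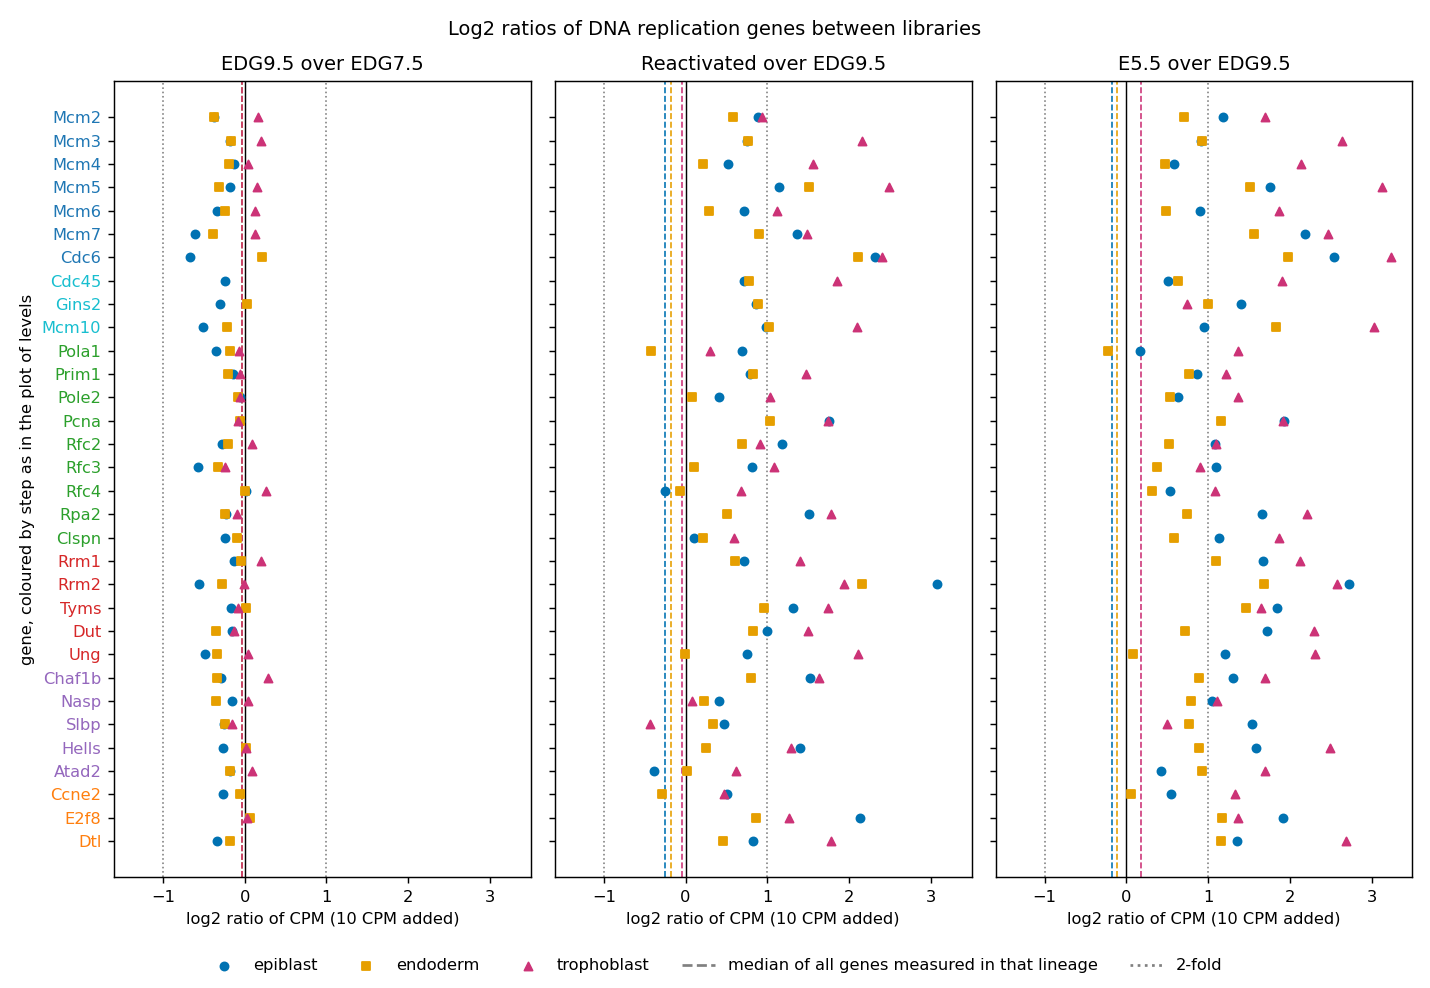
Log2 ratio of CPM with 10 CPM added to both sides, for each measured member (rows, coloured by step) and lineage (symbols), in 3 comparisons. Dashed lines mark the median of all measured genes in each lineage and dotted lines 2-fold; trophoblast symbols lie farthest right for most genes in the 2 comparisons with EDG9.5 as the lower library, and none passes 2-fold between the diapause libraries.

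In E5.5 over EDG9.5, 21 of 32 members were at least 2-fold higher in the epiblast (11.9% of all genes), 10 of 32 in the endoderm (9.84%) and 29 of 32 in the trophoblast (20.2%). None was 2-fold lower, against 21%, 13.7% and 14.2% of all genes. The medians were 1.2, 0.78 and 1.86 (all genes -0.17, -0.11 and 0.18). TMM scaling gave 25 members higher in the epiblast, against 17.3% of all genes (15.3% lower). In the endoderm it gave a median of 1.13 and 21 members higher against 17% of all genes (8.71% lower), with the median of all genes at 0.2. This comparison and the last share the EDG9.5 library, so their likeness is not a result of its own. In the trophoblast the 3 members under 2-fold were Slbp, Gins2 and Rfc3. In CPM the endoderm held the only member below 0, Pola1 at -0.22. The TMM factors were 1.16 in EDG9.5 and 0.89 in E5.5 endoderm, and on that scale Pola1 was slightly above 0, so its sign depends on the scaling.

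E5.5 over Reactivated showed a smaller difference. In the epiblast 2 of 32 members were at least 2-fold higher, against 5.37% of all genes, and 0 lower, against 8.03%. None of 32 was higher or lower in the endoderm, against 5.1% and 4.14%, and 5 of 32 were higher and 0 lower in the trophoblast, against 9.01% and 5.39%. The median log2 ratios were 0.23, 0.25 and 0.64, against 0.11, 0.06 and 0.24 over all genes. TMM scaling left 1 member higher in the epiblast, against 4.68% of all genes higher and 8.49% lower. In the epiblast those 2 were Slbp, 2.24 (1.93 to 2.62), and Clspn, and in the trophoblast the 5 were Clspn, 3.43 (2.36 to 5.17), Hells, 2.45 (2.1 to 2.88), Atad2, Pola1 and Nasp. Just under the threshold in the trophoblast were Mcm7 at a log2 ratio of 0.97, Mcm10 at 0.94 and Slbp at 0.94. Without the 6 trophoblast clusters described below the trophoblast count is 12.

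Marker lists of other lineages differed between the same libraries. The 15 endoderm markers summed to 2736 CPM in the EDG9.5 epiblast but to 1104 in the Reactivated and 328 in the E5.5 one, with 13, 14 and 15 of them detected, and Apoe made up most of the first, 2208 CPM. The 7 markers of uterine epithelium summed to 1627, 1280.4 and 651 CPM in the trophoblast, of which Epcam, which the embryo's own epithelia express too, held 1196, 868 and 595. In the trophoblast, where most members differed, the epiblast list was, in the same order, at 284, 613 and 1105 CPM and the trophoblast's own list at 7483, 4908 and 5651, while in the endoderm the trophoblast list was at 115, 226 and 684. The 8 immune markers summed to 223, 57.4 and 3.41 CPM in the epiblast, nearly all Laptm5 in the first (219), and to 1.56, 76.9 and 30.2 in the trophoblast, nearly all Cd52 in Reactivated (75.3); Ptprc was at most 0.614 in any sum. The 6 endothelial markers were at 204, 52.7 and 7.03 CPM in the epiblast and 3.78, 33.2 and 223 in the trophoblast, and the 8 of decidual stroma at 82.7 in the Reactivated endoderm against 5.45 in EDG9.5. The erythroid list was at or under 1.17 CPM in every sum. In 6 trophoblast clusters the trophoblast list was ahead of another list by under 0.5 log2; without them the trophoblast median was 1.16 with 18 of 30 members higher in Reactivated over EDG9.5, and 1.83 with 29 of 32 in E5.5 over EDG9.5. The part of the markers in the results was not tested.

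Of 59 further replication genes, a smaller share was at least 2-fold higher over EDG9.5. In Reactivated over EDG9.5, 13 of 57 measured were at least 2-fold higher and 1 lower in the epiblast, 3 of 55 higher and 0 lower in the endoderm and 24 of 52 higher and 0 lower in the trophoblast, with medians of 0.45, 0.11 and 0.88. Set beside the 9.83%, 8.07% and 13.8% of all genes higher, the endoderm count is under the background. In E5.5 over EDG9.5 the counts higher were 21 of 57, 7 of 55 and 42 of 55, with 1, 1 and 0 lower, and medians of 0.78, 0.28 and 1.5. All genes gave 11.9%, 9.84% and 20.2% higher there, so the endoderm count is again near the background. Ccne1, cyclin E1, stood highest in epiblast and trophoblast. It was at 13.1 CPM in EDG9.5 but 258 in Reactivated and 384 in E5.5 epiblast, and at 4.0, 138 and 372 in the trophoblast. The other cyclin E gene, Ccne2, was at 11.1, 19.9 and 20.9 CPM in the epiblast.

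Ccna2, cyclin A2, was at 101, 396 and 324 CPM in the endoderm and 27.8, 384 and 465 in the trophoblast in the same order. In nucleotide supply, Dctpp1, which hydrolyses surplus dCTP, went from 23.1 CPM in the EDG9.5 epiblast to 166 in Reactivated, and thymidine kinase Tk1 from 8.35 to 67.9 in the same cells. Of the further replication genes, 17 of 57 measured in the epiblast had a log2 ratio below 0 in Reactivated over EDG9.5. In the endoderm 22 of 55 and in the trophoblast 4 of 52 did. The medians of all measured genes were themselves below 0 there, at -0.25, -0.18 and -0.05. Cdc7, the kinase that fires origins, was at 54.1 CPM in EDG9.5 and 18.7 in Reactivated epiblast, a ratio of 0.347 (0.244 to 0.485), and E5.5 lay between at 34.9. Rrm2b, the ribonucleotide reductase subunit known from resting cells, was at 21.1, 6.24 and 5.39 CPM in EDG9.5, Reactivated and E5.5 epiblast, opposite to Rrm2. Rfc1, the large subunit of the clamp loader, was at 237, 124 and 107 CPM in the endoderm.

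The order of the lineages was the same at the top in all libraries and differed at the bottom. The epiblast had the highest CPM for 25 of 30 measured members in EDG7.5, 22 of 29 in EDG9.5, 24 of 32 in Reactivated and 25 of 32 in E5.5. The trophoblast was lowest for 28 of 30, 26 of 29, 13 of 32 and 3 of 32 members. The endoderm was lowest for 2, 2, 17 and 28. Slbp and Rrm2 were highest in trophoblast in both diapause libraries. In E5.5 the trophoblast was highest for 7 members and the endoderm for 0.

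The ratios of genes with and without E2F letters overlapped. In Reactivated over EDG9.5 the median log2 ratio was 0.82 for 11 with letters and 0.94 for 16 without in the epiblast, 0.29 and 0.79 in the endoderm and 1.29 and 1.57 in the trophoblast. In E5.5 over EDG9.5 the medians were 1.13 and 1.42 in the epiblast, the same order, and 0.89 and 0.78 in the endoderm and 2.46 and 1.8 in the trophoblast, the other order. Within those with letters the endoderm log2 ratios ran from -0.42 for Pola1 to 2.11 for Cdc6 in Reactivated over EDG9.5. Rrm2 and Pcna, whose stretches are printed above without E2F letters, had Reactivated over EDG9.5 log2 ratios of 3.08 and 1.76 in the epiblast.

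Counts in single cells were compared at one depth. Cells were thinned to 2000 UMIs each, which left out 34, 88 and 99 EDG9.5 cells of epiblast, endoderm and trophoblast, at most 28 cells of any other sum and no Reactivated cell. The median number of replication UMIs per thinned cell was 7, 6, 14 and 18 in the epiblast, 4, 4, 6.5 and 8 in the endoderm and 3, 2, 7 and 12 in the trophoblast. Without thinning the medians were 19, 12, 78 and 75, 11, 7, 49 and 35, and 6, 5, 39 and 54. The middle 50% of Reactivated epiblast cells held 10 to 17 UMIs and that of EDG9.5 epiblast cells 4 to 8, so these ranges do not overlap. In the endoderm they were 4 to 9 and 2 to 5, which overlap, and in the trophoblast 4 to 11 and 1 to 4, which meet at 4. The range of EDG7.5 epiblast cells, 5 to 10, meets that of Reactivated epiblast cells at 10.

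The variance of the thinned counts over their mean was above 1 in every sum, the value of pure counting, and highest in Reactivated trophoblast, 2.73, and EDG7.5 epiblast, 2.37. With cells thinned to 1000 UMIs these 2 were at 1.70 and 1.78, so their order depends on the depth. Thinned cells with 0 replication UMIs made up 5.89%, 9.28%, 4.29% and 0% of the trophoblast, and 0.85%, 2.95%, 0.613% and 0% before thinning. No cell type in these libraries should lack all of these genes, so a background share from free RNA could not be set beside this one.

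**Figure D3:**
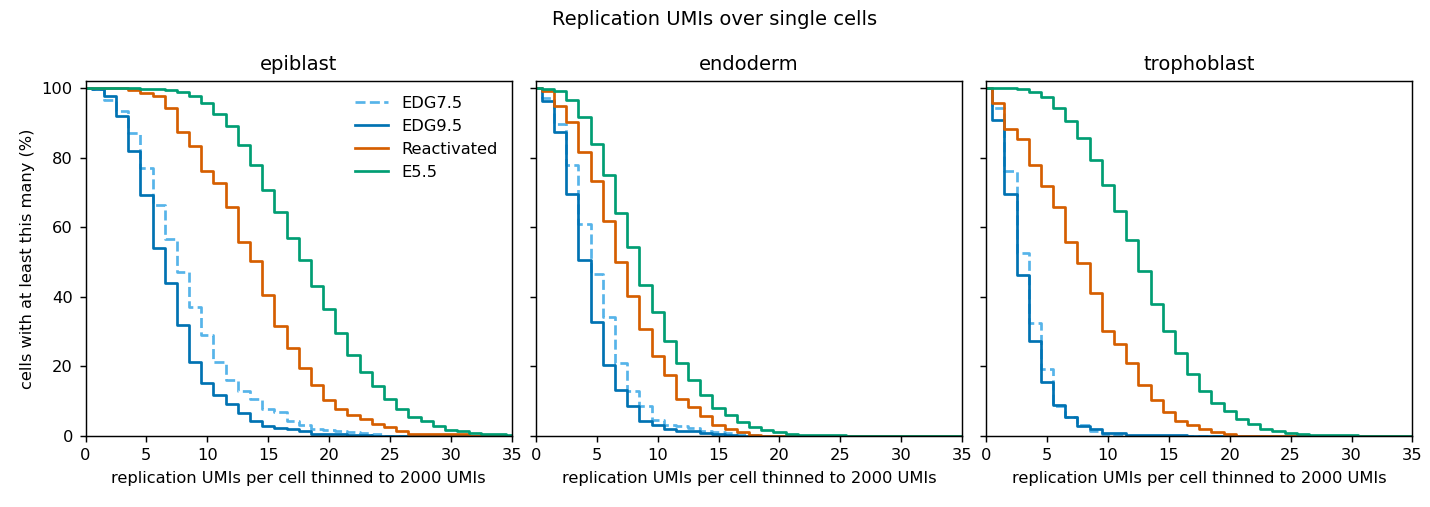
Percentage of cells (vertical axis) with at least the number of replication UMIs on the horizontal axis, after thinning each cell to 2000 UMIs, by lineage and library. The curves of the 2 diapause libraries lie left of those of Reactivated and E5.5 in each lineage, and the Reactivated trophoblast curve is drawn out over both ranges.

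Clusters within a lineage differed too. In the EDG7.5 epiblast a cluster of 81 cells, whose leading genes include the mitotic gene Cenpf, was at 5828 CPM for the 33 genes and the main cluster of 387 cells at 3487. A further cluster there, 21 cells with 0.248% mitochondrially encoded UMIs against 5.48% and 6.12% in those 2, was at 5457. In the EDG9.5 epiblast 70 cells led also by Mki67 and Cenpf were at 5135 CPM and 512 cells at 3055. The EDG7.5 endoderm held 96 cells at 3333 CPM against 2226 and 2392 in its other clusters, the 96 led also by Mki67 and Top2a. In the EDG9.5 endoderm the highest cluster, 109 cells at 2932 CPM against 1766 and 1869, had Cubn, S100g and Spink3 among its leading genes. It was high in mitotic genes as well, with Mki67 at 303 CPM against 8.52 and 5.87 and Top2a at 626 against 39.7 and 45.2. The smaller epiblast clusters thus lay between their library's main cluster and Reactivated, where the 2 epiblast clusters were at 6815 and 6905 CPM. A cluster is defined by its genes, replication genes included, so these values describe the clusters and are no test.

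In the trophoblast the EDG9.5 clusters of 300, 141 and 460 cells were at 1434, 1311 and 1278 CPM and a cluster of 49 cells at 2211. The 49 cells were higher in mitotic genes too. Mki67 was at 74.6 CPM there against 4.62, 3.37 and 0.918, and Top2a at 147 against 12.7, 7.87 and 2.29. Reactivated trophoblast was divided, with 55 and 75 cells at 3971 and 4717 CPM. A further 33 cells, led by Ctsll3, were at 1713 (1577 to 1858). That is above the EDG9.5 clusters of 300, 141 and 460 cells, below the 49 cells and near the highest EDG7.5 trophoblast cluster, at 1630. Mcm5 was at 127 CPM in the 33 cells, against 42.7, 32.6 and 34 in the 300, 141 and 460 cells. It was at 107 in the 49 cells and 53.8 in that EDG7.5 cluster. At E5.5 the lowest trophoblast cluster, 427 cells led by the placental lactogen Prl3d1, was at 4957 CPM and the others at 5517 to 6781, apart from 62 cells at 7360 with 0.349% mitochondrially encoded UMIs and a median of 3924.5 UMIs per cell, against 8724.5 in the library. Apart from those 62 cells, the mitochondrial share of the trophoblast clusters was 7.35% to 11.3% in the diapause libraries, while Reactivated had 6.4% to 6.69% and E5.5 had 3.46% to 4.4%, and its part in the results was not tested.

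**Figure D4:**
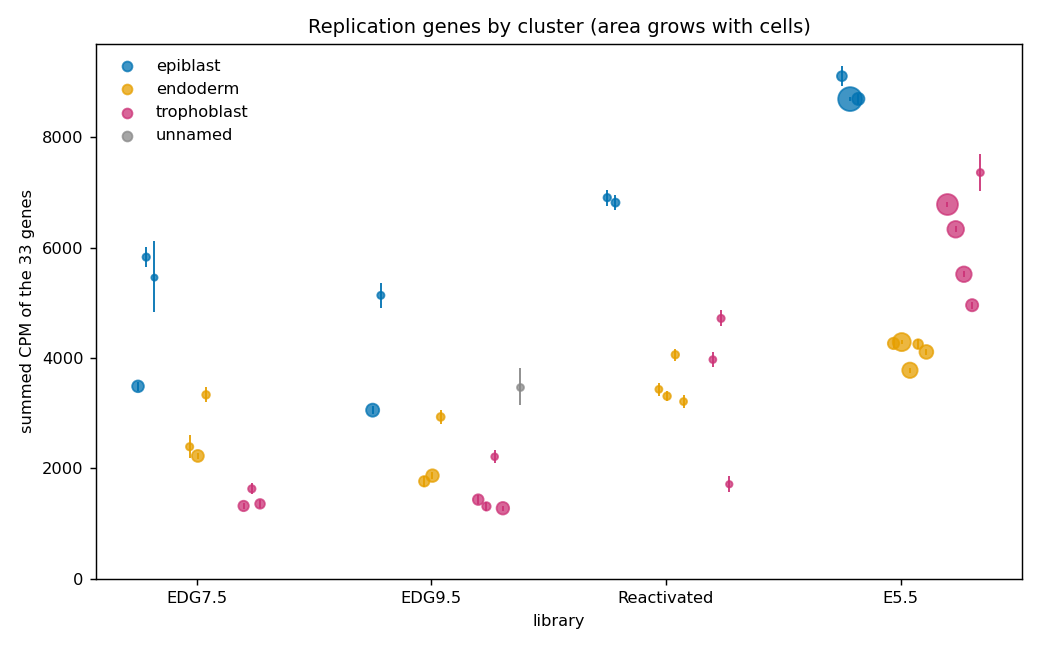
Summed CPM of the 33 genes in each cluster, by library and lineage; the area of a point grows with its cells and bars are 95% Poisson intervals covering counting error only. The 33-cell Reactivated trophoblast cluster sits at 1713 CPM, between the larger EDG9.5 trophoblast clusters and the 49-cell one. A smaller epiblast cluster of each diapause library sits above the main one.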

How the data were processed

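The deposited counts are whole numbers of UMIs for each gene in each barcode. Per the submitters' processing notes, the authors used mm10 and the tools featureCounts 1.6.4 (Subread), STAR 2.7.1a and UMI-tools 1.0.1. Which annotation and strand setting they counted with, and how barcodes were chosen, is not given in the sources used here. Of per-sample columns, 0 were left unmatched. Cells were kept from 1000 UMIs and 500 genes upward when mitochondrially encoded genes made up under 25%, and Scrublet doublets (12, 6, 1 and 279 cells) removed, leaving 1658, 2452, 672 and 9262. Each library was clustered with scanpy 1.11.5 (log CPM, 2000 variable genes, 30 components, 15 neighbours, Leiden resolution 1). A cluster took the name of the highest of 8 marker lists with 3 markers at 20 CPM and a lead of 0.5 log2 over the other two lineages; 57 EDG9.5 cells with endoderm and epiblast markers stayed unnamed. UMIs were summed over lineage and library into 12 sums and given as CPM. TMM factors came from edgeR 4.0.16. All 33 members could be named, and others of the 59 further replication genes only when among the 3 highest or lowest log2 ratios of a comparison and lineage. Members, steps, lists, markers and alternatives were chosen with earlier results of these data known. Promoter windows are from RefSeq (GRCm38.p6) and exon overlaps from GENCODE vM21; where no window was listed, for Mcm4, Gins2, Rfc2, Atad2 and Ccne2, none was searched. The ratio and interval steps alone were tested on simulated data, Poisson counts in 12 simulated pairs of 7263 to 8798 genes. In each, 200 genes were set 2-fold apart. Of the intervals 95.0 to 95.9% held the true ratio, which exact intervals give on such counts by construction. The median log2 ratio of the 200 was 0.86 to 0.88 because 10 CPM are added. That checks the code and not any spread of real counts beyond counting error. Filtering, clustering and naming of cells were not simulated.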

Additional observations from a re-analysis of the deposited data

How the results depend on the processing

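Of 105 member values at least 2-fold apart, all kept their sign under each alternative. With 50 CPM added 47 of them dropped under 2-fold, with cells thinned to 1000 UMIs 9 did, and at most 4 did under any other setting. Ratios nearer to equality could change sign. With TMM scaling those of Ung in Reactivated over EDG9.5 and of Pola1 in E5.5 over EDG9.5 did so in endoderm. Sign changes of such smaller member ratios were not counted. The list values that moved follow, with the counts given for members at least 2-fold higher unless said; for these the cause was not tested, apart from added CPM and minimum levels, which act by construction. TMM scaling gave 22 in the epiblast and 14 in the endoderm with an endoderm median of 0.94 in Reactivated over EDG9.5, 21 in the endoderm with a median of 1.13 in E5.5 over EDG9.5, and 1 in the epiblast in E5.5 over Reactivated. Thinning to 1000 UMIs gave 1 lower in the epiblast in EDG9.5 over EDG7.5, 11 higher in the endoderm and 1 lower in the trophoblast in Reactivated over EDG9.5, and 4, 3 and 10 in epiblast, endoderm and trophoblast in E5.5 over Reactivated; the mean of per-cell CPM also gave 10 in that trophoblast. With 1 CPM added, 1 was lower in the epiblast in EDG9.5 over EDG7.5, 10 were higher in the endoderm in Reactivated over EDG9.5, and 1 and 11 in endoderm and trophoblast in E5.5 over Reactivated. With 50 CPM added, the median was -0.15 in the epiblast in EDG9.5 over EDG7.5, 0.62 in the epiblast and 0.86 in the trophoblast in Reactivated over EDG9.5, with counts of 7, 3 and 11 by lineage, and 0.88, 0.54 and 1.20 in E5.5 over EDG9.5, with counts of 13, 6 and 18; E5.5 over Reactivated gave 0 in epiblast and trophoblast. In E5.5 over Reactivated a mean of at least 50 CPM gave 1 in the epiblast and 3 in the trophoblast, Leiden resolution 0.5 gave 3 in the trophoblast, and leaving out barcodes found in more than 1 library gave 1 in the epiblast. Leaving out the 6 trophoblast clusters near another list, like the barcodes chosen after seeing the data, gave a median of 0.22 in EDG9.5 over EDG7.5 and a count of 12 in E5.5 over Reactivated. At least 500 UMIs and 250 genes kept the same cells. No paired analysis was possible because each stage has 1 library. Fen1 was not measured in any comparison, and Cdc6, Cdc45, Gins2, Mcm10, Clspn, Ccne2 and Dtl stayed under a mean of 10 CPM in the trophoblast in EDG9.5 over EDG7.5, where few UMIs also leave wide intervals.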
